A study of Mus musculus with 16 samples.

Results

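The 10 enzymes described here, Hmgcs1, Mvk, Idi1, Fdps, Fdft1, Lss, Cyp51, Msmo1, Nsdhl and Sc5d, belong to the pathway by which cells make cholesterol from acetyl-CoA. Their members were taken as every probe set of the mouse U74Av2 array that the platform's annotation assigns to one of these genes alone, which gave 17 probe sets of 12488 on the array and 10 genes of 8252. The study hybridised total RNA from 16 samples to 16 arrays in 6 groups: 4 arrays of mouse liver and 12 arrays of 4 embryonic stem (ES) cell lines. Its labels give cholesterol transport as the theme, and each mutant group has a +/+ group of its own. The values are signals in arbitrary units, rescaled to a 2% trimmed mean of 500 on every array, so a signal may be compared between arrays for 1 probe set but not between probe sets. ES cells are cultured cells of the early embryo that can form all tissues.

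Both liver groups came from mice on a background of 129/SvJ mixed with C57BL6/J, whose age and sex the sources used here do not state. They comprised 2 livers labelled Abca1 +/- and 2 +/+ livers. The Cdk4 +/- ES line (3 arrays) was set against E14, a +/+ line (3 arrays), and both were feeder-independent. The Abca1 +/- ES line (3 arrays) was set against ESVJ, its +/+ parental line (3 arrays). Both of these lines had been grown on irradiated feeder cells, which were depleted before about 2 days of growth on gelatin. RNA of the Abca1 +/- and ESVJ lines was isolated with Trizol and RNeasy, that of all other samples with RNeasy. Each mutant ES group is labelled as 1 line, and the labels do not say whether its arrays came from separate cultures. The p-values therefore measure the spread between these arrays, which may be technical.

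Cholesterol synthesis begins with the mevalonate segment, in which Hmgcs1 condenses acetyl-CoA units into HMG-CoA, Mvk phosphorylates mevalonate, Idi1 interconverts the isoprene units and Fdps joins them into farnesyl diphosphate. Fdft1 commits farnesyl diphosphate to sterols by making squalene, Lss closes the ring to lanosterol, and Cyp51, Msmo1, Nsdhl and Sc5d trim and desaturate the sterol. When membranes run low on cholesterol, SREBP transcription factors are released by proteolysis and raise transcription of these genes together, so the pathway is known for moving as a unit in liver and in cultured cells. Abca1 exports cholesterol from cells to apolipoproteins, and Cdk4 is a cyclin-dependent kinase of the cell cycle.

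Promoter windows are shown for 4 of the enzymes. Hmgcs1 was chosen as the enzyme that passed the test in Cdk4 +/- cells. Idi1 and Msmo1 were, with Fdps, the enzymes furthest below the rest of the group on E14 replicate 3. Sc5d was chosen because it did not vary with the others over the ES arrays, where it read near the lowest signal tested. RefSeq promoters on build GRCm38.p6 were matched for 8 of the 10 genes, and those of Fdps and Fdft1 were not matched. Each line holds the 140 bases before the annotated start of transcription, 5′ to 3′ on the gene's strand. The windows lie at chr13:119690211-119690350 on the plus strand for Hmgcs1, chr13:8885466-8885605 on the plus strand for Idi1, chr8:64733579-64733718 on the minus strand for Msmo1 and chr9:42264301-42264440 on the minus strand for Sc5d. Capitals mark matches, on either strand, to a sterol regulatory element (TCACNCCAC), a CCAAT box (CCAAT, or on the other strand ATTGG) and a GC box (GGGCGG, or on the other strand CCGCCC).
Hmgcs1: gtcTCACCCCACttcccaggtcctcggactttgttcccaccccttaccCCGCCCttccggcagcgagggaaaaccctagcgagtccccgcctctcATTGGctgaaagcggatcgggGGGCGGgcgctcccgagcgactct
Idi1: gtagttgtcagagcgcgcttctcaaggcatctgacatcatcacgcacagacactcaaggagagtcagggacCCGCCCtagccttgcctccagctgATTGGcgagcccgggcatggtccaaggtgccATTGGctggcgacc
Msmo1: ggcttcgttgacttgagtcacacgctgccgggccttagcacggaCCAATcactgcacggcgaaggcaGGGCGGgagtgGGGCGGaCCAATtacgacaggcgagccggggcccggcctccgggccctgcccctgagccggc
Sc5d: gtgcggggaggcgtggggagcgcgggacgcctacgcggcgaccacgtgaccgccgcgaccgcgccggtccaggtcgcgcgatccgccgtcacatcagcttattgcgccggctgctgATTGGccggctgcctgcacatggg
Over 250 bases upstream, the letters of the sterol element were found in 1 of the 8 promoters, that of Hmgcs1 (positions −137 to −129 from the start), and in 1.053% of all 32851 promoters. A CCAAT box was found in 8 of 8 against 33.85% of all promoters, and a GC box in 8 of 8 against 32.74%. These motifs do not overlap one another in the windows printed. A match describes letters only, and no match says only that these letters are not in this window.

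Several checks bear on all results that follow. Marker genes of hepatocytes summed to signals of 195674 to 256627 in the livers and 306 to 614 in the ES arrays, and those of ES cells to 619 to 982 in the livers and 36049 to 69637 in the ES arrays, with no marker at 0. Summed markers of feeder fibroblasts spanned 3222 to 4611 over the ES arrays, and those of blood and macrophages 20658 to 27697 over the livers. Cdk4 (probe set 160538_at) was lower in Cdk4 +/- cells than in E14 (log2 difference −0.63, limma adjusted p = 0.00436). Abca1 (94354_at) differed by −0.26 between Abca1 +/- and ESVJ cells (adjusted p = 0.9997). In liver this probe set read 699 and 555 in the livers labelled Abca1 +/- and 327 and 301 in the +/+ livers, against the label, while 97198_at read 41.5 and 161 in the livers labelled Abca1 +/- and 295 and 140.3 in the +/+ livers. Neither probe set passed between the livers. The log2 differences were 0.92 for 94354_at (limma adjusted p = 0.191) and −0.996 for 97198_at (adjusted p = 0.366). Where either probe set lies relative to the mutated part of the gene is not stated, so these values cannot decide whether the labels hold. Every direction in liver below is therefore drawn from labels that could not be checked. The first liver labelled Abca1 +/- also stood apart in RNA quality, with a 3′ to 5′ signal ratio of 8.23 for actin and 4.10 for Gapdh, against 1.78 to 2.14 and 0.815 to 1.13 in the other 3 livers.

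**Figure D1:**
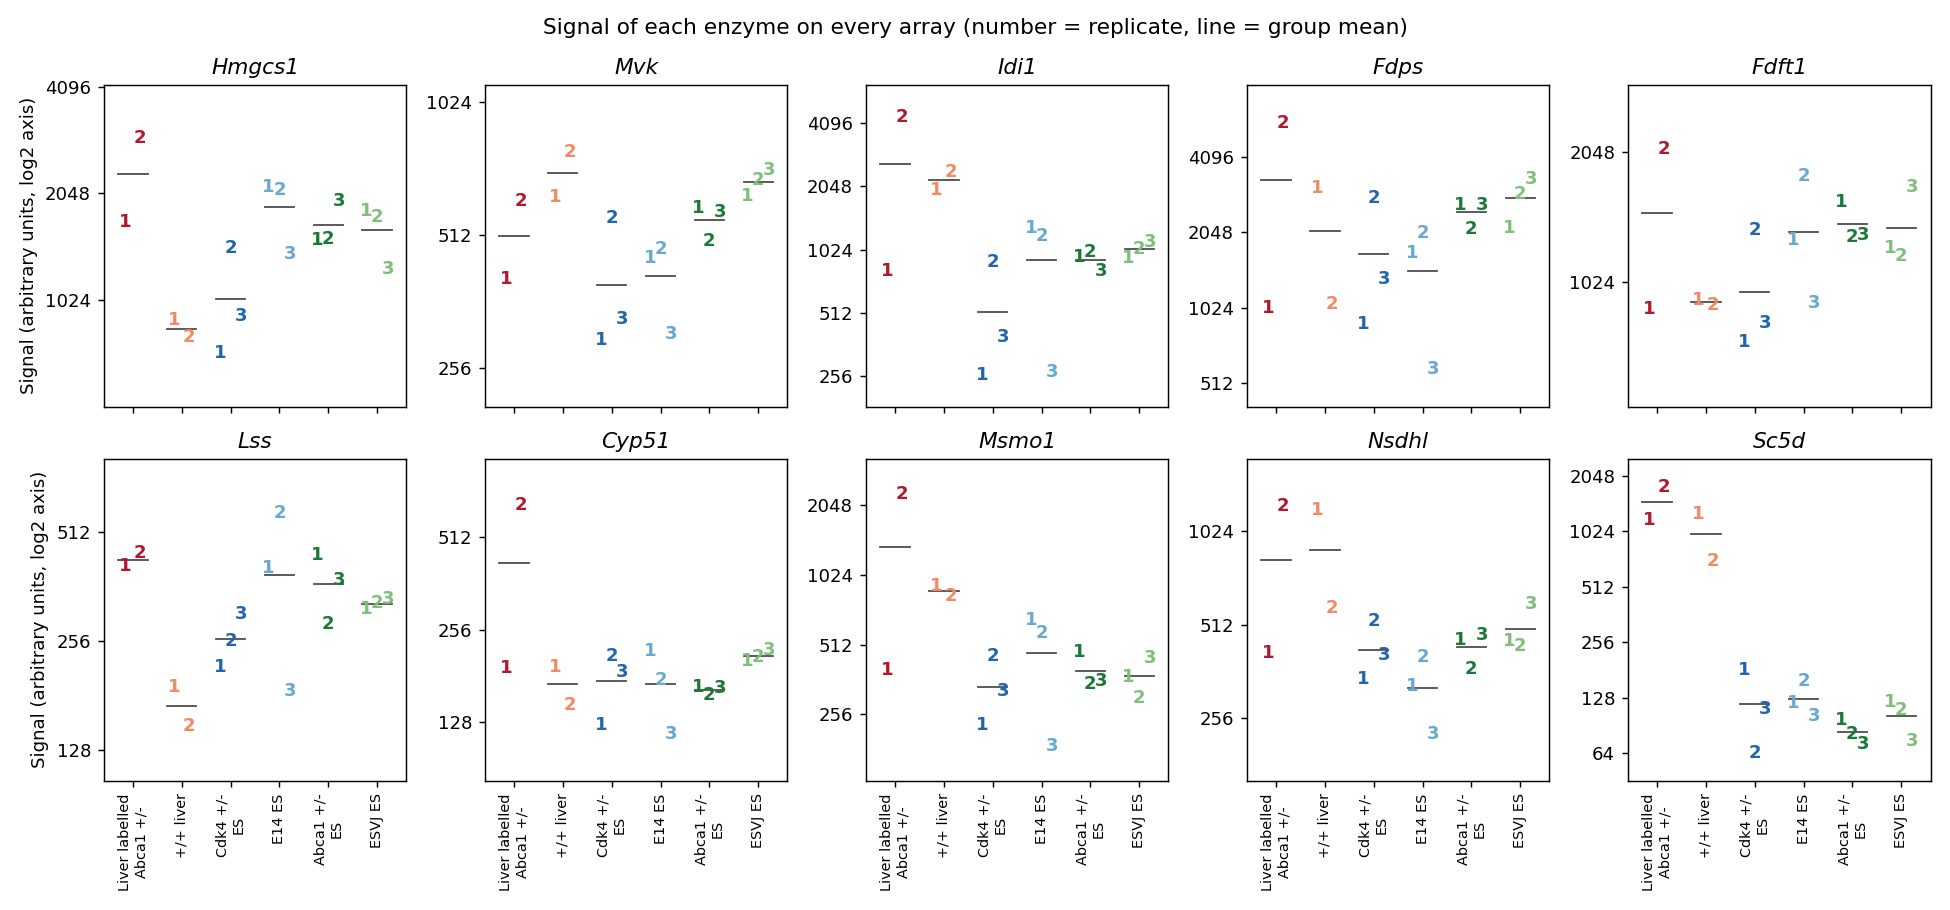
Signal of each enzyme (arbitrary units, log2 axis) on every array, for the probe set of highest mean signal per gene; digits are the replicates, horizontal lines the group means, and the groups run from the livers labelled Abca1 +/- to ESVJ. The second liver labelled Abca1 +/- reads highest of its group in all 10 panels, and E14 replicate 3 reads lowest of its group in all 10.

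In ES cells 13 of the 17 probe sets, covering all 10 genes, had a mean signal of at least 100 and were tested. The other 4 were Mvk 95632_f_at, Fdps 162217_r_at, Fdps 162281_at and Sc5d 102769_f_at. The suffix letters f, g, r and i mark probe sets that the manufacturer designed with shared, relaxed or incomplete probes, so an f or g probe set may also read related transcripts. Fdps 162217_r_at read between 4.40 and 41.4 on all 16 arrays, and neither it nor Fdps 162281_at passed this filter in any of the ES, liver or combined sets of arrays used for the main tests.

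No enzyme passed the test between Abca1 +/- and ESVJ ES cells: 0 of 13 probe sets, where 0.0272% of all 7349 probe sets passed. None of the 13 had an unadjusted p under 0.05, against 241 of all 7349 probe sets, so 0 of 13 lies near the background. The median log2 difference of the enzymes was −0.16, against 0.00 for all probe sets. Hmgcs1, the enzyme that makes HMG-CoA, read 1516, 1523 and 1949.8 in Abca1 +/- cells, against 1831, 1756 and 1253 in ESVJ cells. The groups overlapped, and the log2 difference was 0.05 (95% interval -0.44 to 0.54). Cyp51, the lanosterol demethylase, read 167, 157 and 166 in Abca1 +/- cells, against 203, 208 and 219 in ESVJ cells, a log2 difference of -0.31 ± 0.21 (SE). Mvk, mevalonate kinase, read 591, 498 and 576 in Abca1 +/- cells and 628, 683 and 717 in ESVJ cells. For Cyp51 and Mvk every Abca1 +/- array lay below every ESVJ array, but neither passed (adjusted p = 0.9997 for both). The other 11 probe sets overlapped between the groups, with log2 differences between -0.21 and 0.16. In bulk RNA of this kind, fewer cells of a type and less RNA per cell cannot be told apart.

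In Cdk4 +/- ES cells Hmgcs1 was lower by the test, and it was the only 1 of the 13 probe sets to pass, where 4.91% of all probe sets passed. A count of 1 of 13 lies near that share and is not a result about these enzymes as a group. Hmgcs1 read 725, 1441 and 921 in Cdk4 +/- cells (1029 ± 369.9, mean ± SD, n = 3), against 2130.2, 2099 and 1385 in E14 cells (1871 ± 422, SD, n = 3). The groups overlapped, since Cdk4 +/- replicate 2 lay above E14 replicate 3. The log2 difference was -0.87 ± 0.23 (SE, limma adjusted p = 0.0424). The call was lost in 4 of the 6 fits that left out 1 array, namely those without Cdk4 +/- replicate 1, Cdk4 +/- replicate 3, E14 replicate 1 or E14 replicate 2 (adjusted p of 0.138 to 0.182), and in 4 other alternatives. In every alternative run the log2 difference stayed below 0, between −1.34 and −0.66. The median of the 13 probe sets was −0.13, against 0.02 for all probe sets, with 8 below 0 and 5 above. Summed ES cell markers were 43217 to 49192 in Cdk4 +/- cells and 36049 to 41776 in E14 cells, 2 of 11 passed and were higher in Cdk4 +/- cells, and their part in the result was not tested.

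The remaining enzymes of the mevalonate segment differed within the spread of the arrays in this comparison. Idi1, the isomerase of the isoprene units, read 259, 889.6 and 395 in Cdk4 +/- cells and 1289, 1192 and 269 in E14 cells. Each group held both low and high arrays, and the log2 difference of -0.70 had an interval of -1.67 to 0.27. Fdps, farnesyl diphosphate synthase, read 876, 2813 and 1336 on 99098_at in Cdk4 +/- cells, against 1687, 2038 and 581 in E14 cells, with a log2 difference of 0.23 (adjusted p = 0.808). Its second probe set, 160424_f_at, gave -0.20, so the signs of the 2 probe sets differed and neither passed. Mvk read 297, 559 and 331 in Cdk4 +/- cells and 455, 477 and 306 in E14 cells, again with overlap and a log2 difference of -0.08.

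Of the enzymes that act on squalene and sterols, none passed. Fdft1, squalene synthase, read 739.7, 1348 and 818 in Cdk4 +/- cells and 1278, 1809 and 914 in E14 cells (log2 difference -0.44, adjusted p = 0.317). Lss, lanosterol synthase, read 217, 256 and 303 in Cdk4 +/- cells and 407, 576 and 186 in E14 cells (log2 difference -0.42). For both enzymes E14 replicate 3 lay among or below the Cdk4 +/- arrays. Msmo1, the methylsterol monooxygenase, read 229, 459.9 and 322 in Cdk4 +/- cells, against 655, 575 and 187 in E14 cells. Its E14 replicate 3 was the lowest of the 6, and the log2 difference was -0.33 ± 0.34 (SE). Cyp51 read 126, 209.5 and 187 in Cdk4 +/- cells and 218, 175 and 117 in E14 cells, a log2 difference of 0.04. Nsdhl, the sterol dehydrogenase that removes a carboxyl group, read 193, 339.6 and 250.1 on 93868_at in Cdk4 +/- cells and 257, 258 and 128 in E14 cells. Its 3 probe sets gave log2 differences of 0.08 to 0.40. Sc5d, the sterol desaturase, read 181, 63.9 and 110.3 in Cdk4 +/- cells and 120.0, 157 and 101 in E14 cells, a log2 difference of -0.13.

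**Figure D2:**
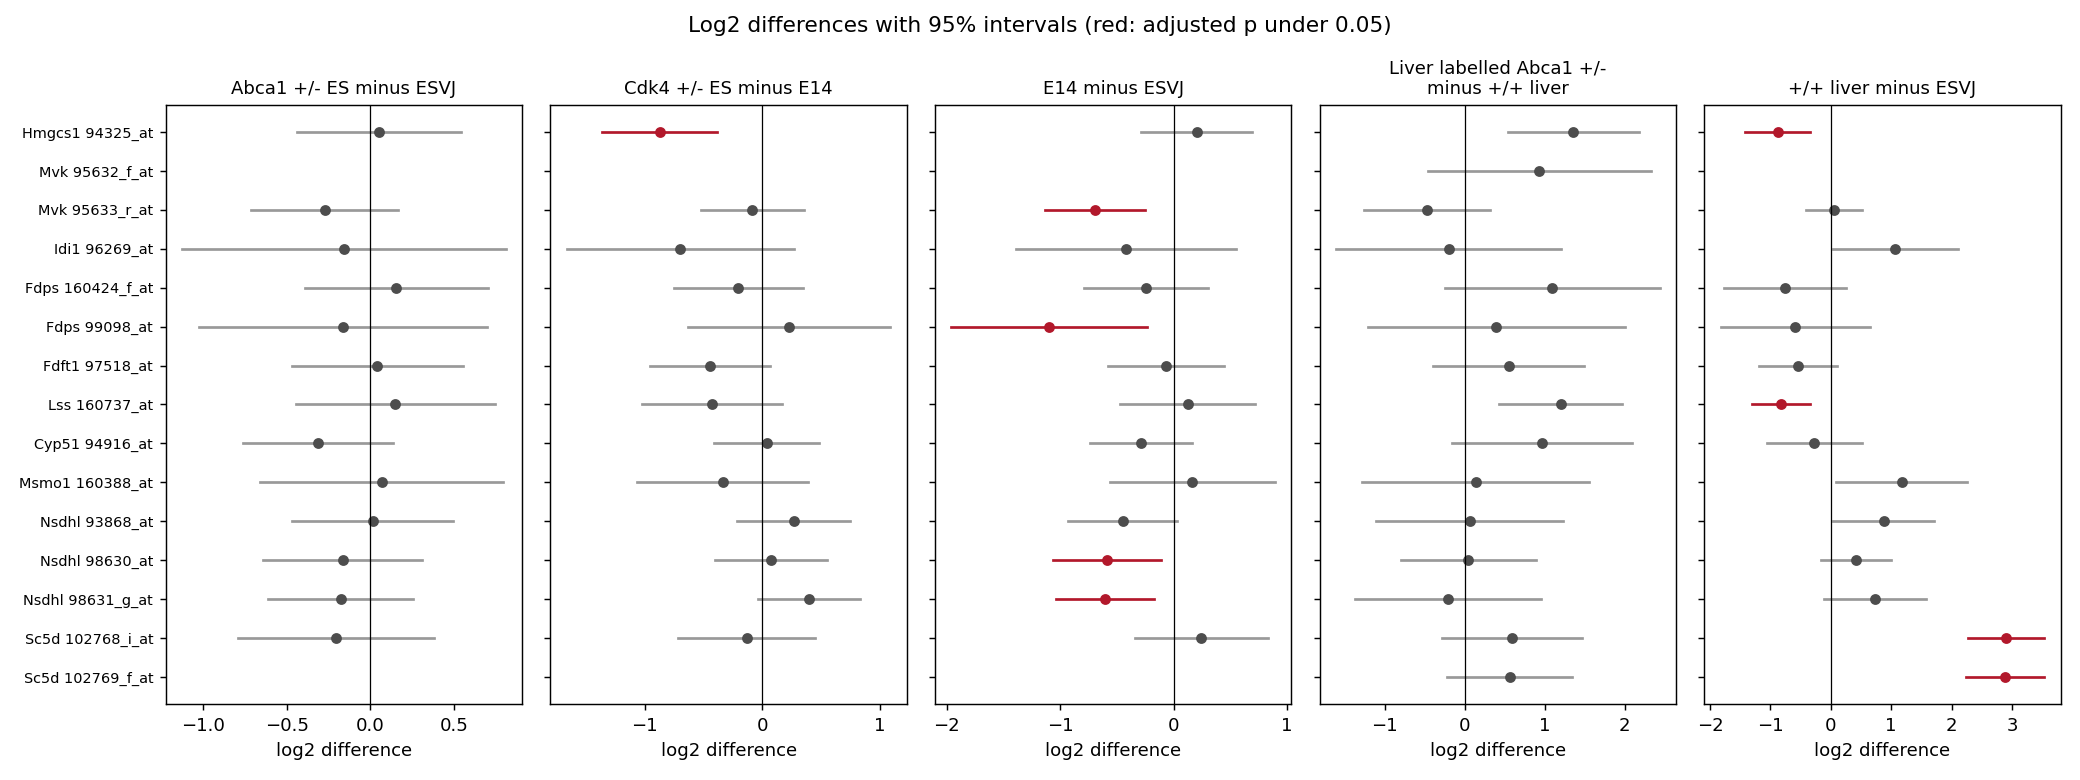
Log2 difference (point) with its 95% interval (line) for each probe set in 5 comparisons, from limma; red marks an adjusted p under 0.05 over all probe sets, a missing point a probe set below the signal filter, and each panel has its own horizontal scale. Hmgcs1 is red for Cdk4 +/- minus E14, 4 probe sets are red and below 0 for E14 minus ESVJ, and no probe set is red in the Abca1 panels.

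Within the E14 and Cdk4 +/- groups the enzymes differed together between arrays. On E14 replicate 3 all 13 probe sets read below the mean of E14 replicates 1 and 2, by a median of −0.72 on the log2 scale, where 48.4% of all probe sets were below. Of the 13, 5 were at least 2-fold below, against 0.776% of all probe sets. The log2 difference from that mean was −2.08 for Idi1, −1.62 for Fdps (99098_at), −1.56 for Msmo1 and −1.24 for Lss. On Cdk4 +/- replicate 2, 11 of 13 read above the mean of replicates 1 and 3, where 52.1% of all probe sets did. On this array 2 were at least 2-fold above, against 1.27% of all probe sets. Idi1 was above by 1.39 and Fdps (99098_at) by 1.35, while Sc5d differed by −0.86. On Cdk4 +/- replicate 1, 12 of 13 read below the mean of replicates 2 and 3, where 53.0% of all probe sets did. The median was −0.50. Idi1 (−1.11) and Fdps 99098_at (−1.12) were at least 2-fold below, against 0.558% of all probe sets. These differences are not independent of each other, since every array of a group enters the mean that the others are set against. In the Abca1 +/- and ESVJ lines none of the 13 probe sets was at least 2-fold from the mean of the other arrays of its group on any array. Of all 7349 probe sets, 24 to 46 per array were at least 2-fold above and 28 to 76 at least 2-fold below, so 0 of 13 lies near that background. Median signal and 3′ to 5′ ratios of E14 replicate 3 (157, actin 1.16, Gapdh 0.907) and Cdk4 +/- replicate 2 (170, actin 1.19, Gapdh 0.973) lay within or next to the range of the other ES arrays (153 to 169, actin 1.04 to 1.40, Gapdh 0.801 to 1.19). What made these arrays differ was not tested, and the titles tell the arrays of an ES group apart by an RNA number alone.

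**Figure D3:**
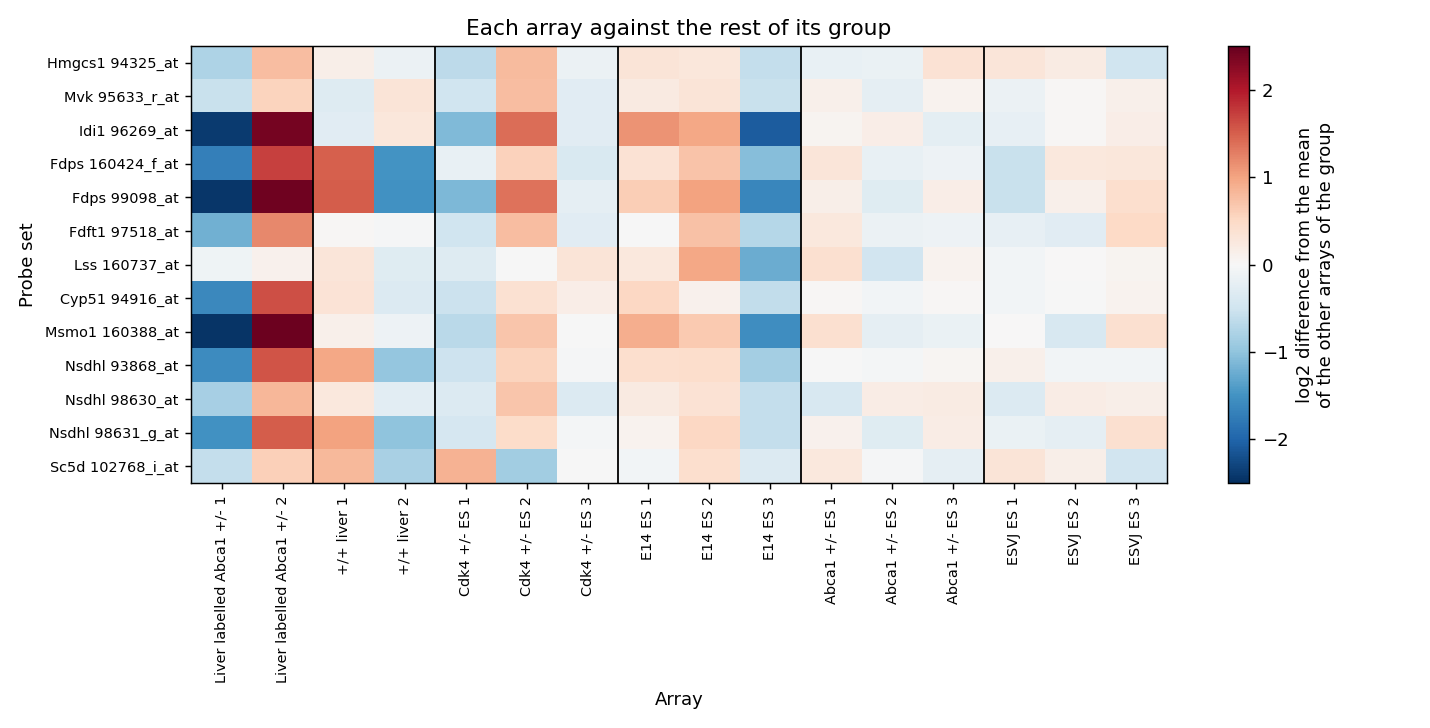
Log2 difference of each probe set on each array from the mean of the other arrays of its group (red above, blue below; colours saturate at 2.5), for the 13 probe sets tested in ES cells. The columns of E14 replicate 3 and of the first liver labelled Abca1 +/- are blue throughout, and that of Cdk4 +/- replicate 2 is red except for Sc5d and Lss.

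The count of enzymes that passed in the Cdk4 comparison depended on the arrays left out. As given above, the Hmgcs1 call was kept without E14 replicate 3 or Cdk4 +/- replicate 2 and was lost without any other single array of these groups. Without E14 replicate 3, 4 of 13 probe sets passed and were lower in Cdk4 +/- cells, where 7.09% of all probe sets passed. They were Hmgcs1 (log2 difference −1.07, adjusted p = 0.0175), Idi1 (−1.39, 0.0220), Lss (−0.84, 0.0276) and Msmo1 (−0.85, 0.0473). Without Cdk4 +/- replicate 2 as well, 7 of 13 passed and were lower, where 8.95% of all probe sets passed, and the median of the 13 was −0.75. Fdft1 (−0.94), Fdps 160424_f_at (−0.75) and Mvk (−0.53) joined the other 4. Both fits left out arrays that were singled out by the levels of the same enzymes. E14 replicate 3 was low and Cdk4 +/- replicate 2 high, each in the direction that opposes a decrease. The counts of both fits are therefore a description and give no independent support for a decrease.

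Between the +/+ lines, 4 probe sets of 3 enzymes were lower in E14 than in ESVJ and none was higher. Of all probe sets 42.6% passed in either direction and 22.8% were lower in E14, so a count of 4 of 13 lies near the background and is not a result about these enzymes as a group. Mvk read 455, 477 and 306 in E14 cells and 628, 683 and 717 in ESVJ cells (log2 difference -0.69 ± 0.21, SE, adjusted p = 0.0144). Fdps (99098_at) read 1687, 2038 and 581 in E14 cells, against 2126, 2911 and 3347 in ESVJ cells (log2 difference -1.10 ± 0.40, adjusted p = 0.0397). For both, every E14 array lay below every ESVJ array. Fdps 160424_f_at differed by -0.25 (adjusted p = 0.46). The Nsdhl probe sets 98630_at and 98631_g_at differed by -0.59 and -0.61 (adjusted p = 0.0453 and 0.0264), and 93868_at by -0.45 (adjusted p = 0.121). Hmgcs1 differed by 0.20 and Lss by 0.12, neither past the test. Without E14 replicate 3 no enzyme was lower by the test, Msmo1 was higher (0.68, adjusted p = 0.0378), the median became 0.11 in place of −0.29, and 37.3% of all probe sets passed. Since E14 replicate 3 was singled out by the levels of these enzymes, the values without it are a description. Without ESVJ replicate 2, the enzymes that passed were Mvk and Nsdhl 98631_g_at, 2 of 13, where 35.8% of all probe sets passed, and without ESVJ replicate 3 Mvk alone passed, where 34.6% did. ES cell markers moved with the lines: their summed signal was 36049 to 41776 in E14 and 62242 to 69637 in ESVJ, and 11 of 11 tested were lower in E14, and their part in the result was not tested. Line, feeder culture and RNA isolation differ together between E14 and ESVJ and cannot be told apart.

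The difference between the Cdk4 and the Abca1 comparison in ES cells was itself tested. None of the 13 probe sets passed, where 0.626% of all probe sets did. Hmgcs1 gave the smallest unadjusted p, with a difference between the comparisons of -0.93 ± 0.32 (SE, adjusted p = 0.188).

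Across the 12 ES arrays, the deviation of each enzyme from its group mean had a positive correlation with the mean deviation of the other enzymes, except for Sc5d. Pearson's r with the mean of the other probe sets was 0.70 for Hmgcs1, 0.91 for Mvk, 0.96 for Idi1, 0.96 for Fdps 99098_at, 0.85 for Fdft1, 0.79 for Lss, 0.86 for Cyp51, 0.93 for Msmo1 and 0.96 for Nsdhl 93868_at. The other tested probe sets gave 0.88 for Fdps 160424_f_at, 0.76 for Nsdhl 98630_at and 0.88 for Nsdhl 98631_g_at. For Sc5d r was −0.27. The middle 95% of all 7349 probe sets spanned −0.78 to 0.80 against the mean of the enzymes, so a high r is common here, and the points share arrays and 8 residual degrees of freedom. Hmgcs1, Lss and Nsdhl 98630_at lay within that span, as did Sc5d. Without E14 replicate 3, over 11 arrays, r was 0.33 for Lss, −0.84 for Sc5d and between 0.59 and 0.97 for the other probe sets. The middle 95% of all probe sets then spanned −0.81 to 0.81. Hmgcs1, Fdps 160424_f_at, Lss, Cyp51, Msmo1 and Nsdhl 98630_at lay within that span, and Sc5d lay below it. These are descriptions with no test.

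The 10 genes outside the list whose deviations were most like the mean of the enzymes over the 12 arrays were Mrpl12, Ccne1, Psmb8, Pdk1, Glrx, Hopx, 2610507B11Rik, Tm7sf2, Rpl39l and Rfc5, with r between 0.94 and 0.95 (0.81 to 0.89 without E14 replicate 3). Tm7sf2, a sterol reductase of the same pathway, ranked 8 of 5580 genes. Other enzymes of the pathway ranked 18 (Sqle, squalene epoxidase), 31 (Dhcr7, which reduces the last precursor), 88 (Mvd, mevalonate diphosphate decarboxylase), 677 (Lbr, a sterol reductase of the nuclear envelope) and 2810 (Ebp, a sterol isomerase). These ranks rest in part on E14 replicate 3: r was 0.84 for Mvd, 0.57 for Lbr and −0.01 for Ebp over the 12 arrays, and 0.31, 0.03 and −0.60 without that array. For Tm7sf2, Sqle and Dhcr7 r was 0.94, 0.93 and 0.91 over the 12 arrays, and 0.87, 0.83 and 0.71 without it. Sqle read 1023, 1769.6 and 1128 in Cdk4 +/- cells and 1829.5, 2196 and 925 in E14 cells. As with the listed enzymes, Cdk4 +/- replicate 2 and E14 replicate 3 were the ones that differed from the rest of their groups. Of 6 such enzymes tested in ES cells, 0 passed between Abca1 +/- and ESVJ, between Cdk4 +/- and E14, and between E14 and ESVJ. The smallest unadjusted p among these enzymes in the Cdk4 comparison was that of Mvd (log2 difference −0.56, adjusted p = 0.168).

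In liver no enzyme passed between the livers labelled Abca1 +/- and the +/+ livers (0 of 15, where 0.0140% of all 7160 probe sets passed). Of the 15, 2 had an unadjusted p under 0.05, against 1321 of all 7160 probe sets, so 2 of 15 lies near the background. The median log2 difference was 0.55 for the enzymes, against 0.11 for all probe sets, with 12 of 15 above 0. One of the 15, Mvk 95632_f_at, reached the signal filter through the second liver labelled Abca1 +/- alone (mean of the other 3 livers 55.3), and without it the median was 0.48, with 11 of 14 above 0. Blood and macrophage markers had a median of 0.56 in this comparison, with 0 of 9 past the test and Csf1r, a macrophage receptor, the highest (1.84, adjusted p = 0.114). Their summed signal was 20984 and 27697 in the livers labelled Abca1 +/-, against 20658 and 24004 in the +/+ livers, with none at 0, and their part in the result was not tested. Hmgcs1 read 1703 and 2927 in the livers labelled Abca1 +/-, against 898 and 804 in the +/+ livers. The groups did not overlap, and the log2 difference was 1.36 ± 0.37 (SE, adjusted p = 0.129). Lss read 411 and 448 in the livers labelled Abca1 +/-, against 190.3 and 149 in the +/+ livers. These groups did not overlap either (log2 difference 1.20 ± 0.34, adjusted p = 0.139). With all 16 arrays in one fit, which shares one estimate of the spread between livers and ES arrays, both passed (adjusted p = 0.00477 for Hmgcs1 and 0.0171 for Lss), where 25.1% of all probe sets did.

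The second liver labelled Abca1 +/- read above the first for 14 of 14 probe sets, Mvk 95632_f_at set aside, where 40.7% of all probe sets did. It was at least 2-fold above for 8 of the 14, against 6.97% of all probe sets, and the smallest difference was that of Lss (0.11 on the log2 scale). Idi1 read 805 in the first and 4392 in the second, against 1976 and 2398 in the +/+ livers. Msmo1 read 397 and 2301, against 920.1 and 835 in the +/+ livers. For both enzymes the +/+ livers lay between the 2 labelled Abca1 +/-. Fdps (99098_at) read 1015 and 5619.7, against 3084 and 1059 in the +/+ livers, which also differed from each other. Cyp51 read 192 and 651, against 194 and 146 in the +/+ livers. Fdft1 read 882 and 2081, against 929 and 903 in the +/+ livers. In each of these 3 the second liver labelled Abca1 +/- was the highest of the 4. Mvk was an exception on 95633_r_at, with 408 and 611 against 626 and 790.4 in the +/+ livers, while the low f probe set read 59.0 and 260.3 against 50.6 and 56.2. Nsdhl (93868_at) read 331 and 1046 against 801 and 397 in the +/+ livers, so both groups held a low and a high liver. Sc5d (102768_i_at) read 1175 and 1796 against 1273 and 711 in the +/+ livers, with overlap.

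**Figure D4:**
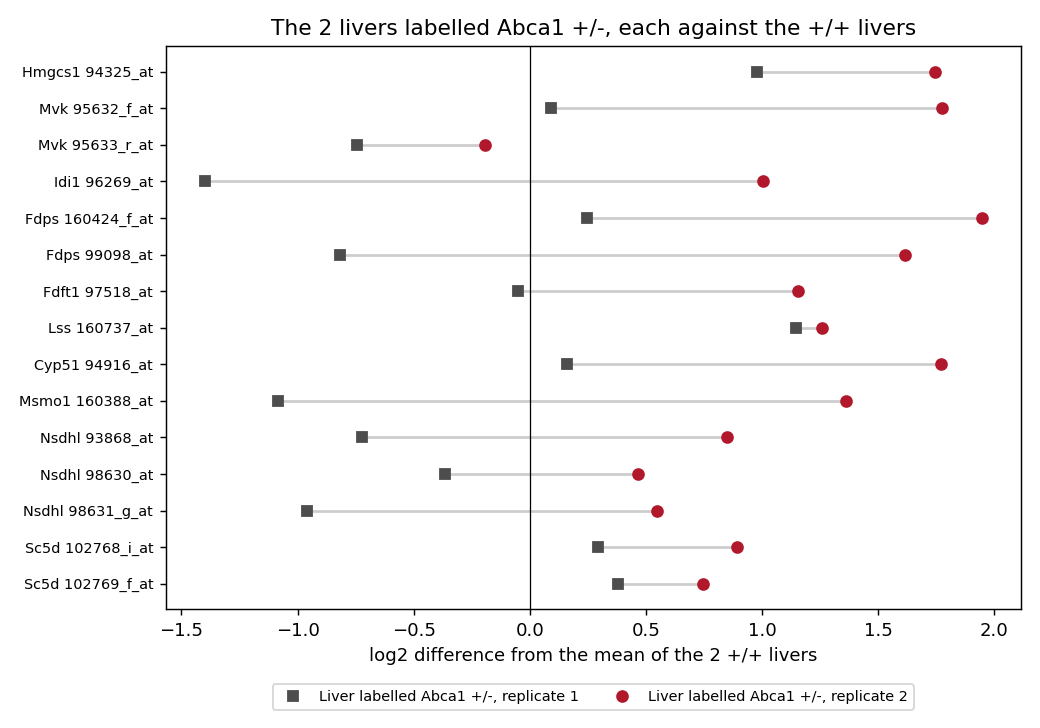
Log2 difference of each of the 2 livers labelled Abca1 +/- from the mean of the 2 +/+ livers, for the 15 probe sets tested in liver (squares, replicate 1; circles, replicate 2; grey lines join the same probe set). The circles lie to the right of the squares for all 15, and to the right of 0 for all but Mvk 95633_r_at; Mvk 95632_f_at was tested only because of its signal in replicate 2.

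Set against the mean of the +/+ livers, the second liver labelled Abca1 +/- was above for 13 of the same 14 probe sets. Of all probe sets 50.6% were above. Its median was 1.08, against 0.01 for all probe sets, and it was at least 2-fold above for 8, against 6.22% of all. The first was above for 6 and below for 8, with a median of −0.21, against 0.23 for all probe sets. It was at least 2-fold above for 1 (Lss), against 17.0% of all probe sets. The first was the liver with the high 3′ to 5′ ratios given above, and the part of RNA quality in this difference was not tested. Without the second liver, 4 of 15 passed, where 22.8% of all probe sets did: Hmgcs1 (log2 difference 0.98) and Lss (1.14) were higher, Idi1 (−1.40) and Msmo1 (−1.08) were lower, and the median was −0.37. Without the first liver 0 of 16 passed, where 0.130% of all probe sets did, and the median was 1.08, or 1.002 without Mvk 95632_f_at. With 1 liver left in the group, both fits assume that this liver varies as the +/+ livers do. For Hmgcs1 the first liver lay 0.98 and the second 1.75 above the +/+ mean on the log2 scale, and for Lss these values were 1.14 and 1.26.

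The +/+ livers differed from ESVJ cells most in Sc5d. Of 14 probe sets tested, 4 passed, where 67.4% of all 7883 probe sets passed. The 2 that were higher in liver, against 23.5% of all, were both of Sc5d, but 102769_f_at reached the signal filter through the livers alone and had to differ, so it is described and adds no support. Sc5d (102768_i_at) read 1273 and 711 in the +/+ livers, against 122, 109.9 and 73.99 in ESVJ cells, a log2 difference of 2.90 ± 0.29 (SE, adjusted p = 1.68e-06). The groups lay far apart, and all 4 livers exceeded all 12 ES arrays on both probe sets (102769_f_at read 685 and 473 in the +/+ livers and 52.5, 71.6 and 29.9 in ESVJ cells). In this fit 102768_i_at also passed the signal filter with the help of the livers. Its mean was 101.8 in ESVJ and 83.1 in Abca1 +/- ES cells, so its difference is a description too. The 2 that were lower, against 43.9% of all, were Hmgcs1 and Lss. Hmgcs1 read 898 and 804 in the +/+ livers and 1831, 1756 and 1253 in ESVJ cells (log2 difference -0.88, adjusted p = 0.00724). Lss read 190.3 and 149 in the +/+ livers and 313, 325 and 333 in ESVJ cells (log2 difference -0.83, adjusted p = 0.0053). For neither enzyme did the groups overlap. Without the second +/+ liver both narrowly missed the threshold (adjusted p = 0.0537 for Hmgcs1 and 0.0509 for Lss), and after quantile normalization Lss did too (0.0875). Idi1 (1.07, adjusted p = 0.0648), Msmo1 (1.18, 0.0525) and Nsdhl 93868_at (0.88, 0.0596) had higher means in liver and missed the threshold. The median over all probe sets was −0.38 and that of the enzymes 0.24, which became −0.11 with 1 probe set per gene. Tissue, culture and RNA isolation differ together between these groups.

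Whether the Abca1 comparison differed between liver and ES cells was tested in one fit of the 10 arrays of both Abca1 +/- groups and their +/+ groups. No enzyme passed (0 of 14, where 2.38% of all probe sets did). Hmgcs1 had a difference between the tissues of 1.31 ± 0.35 (SE, adjusted p = 0.0691), and Lss of 1.05 ± 0.31 (adjusted p = 0.0901). The labelled genotype of the livers bears on both.

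Neighbouring lists were counted the same way, each gene by its probe set of highest mean signal. Of the other cholesterol enzymes, 2 of 6 were higher in +/+ liver than in ESVJ (Tm7sf2, log2 difference 4.08, and Ebp, 3.18). A further 3 were lower (Lbr −3.03, Mvd −1.02 and Sqle −1.01). The list median was −0.78, where 23.5% of all probe sets were higher and 43.9% lower. The Tm7sf2 probe set used here read 33.0 to 144 in Abca1 +/- ES and ESVJ cells and 1296 to 2529 in the livers. It reached the signal filter through the livers, so its call adds no support. The ranking over the ES arrays used another Tm7sf2 probe set. That one read 1189 and 1438 in the +/+ livers, against 447 to 492 in ESVJ cells. None of 7 passed between the livers labelled Abca1 +/- and the +/+ livers, where Sqle read 635 and 1338 against 647 and 529, the second liver again the highest. Of 4 SREBP regulators and uptake genes tested, 3 were higher in E14 than in ESVJ, where 19.8% of all probe sets were: Srebf1, an SREBP itself (0.62), Npc2, which moves cholesterol out of lysosomes (0.50), and Mbtps1, a protease that releases SREBPs (0.40). None of the 4 passed in the Abca1 or Cdk4 comparison of ES cells or between the livers. The smallest unadjusted p between the livers was that of Npc1, the lysosomal cholesterol transporter (1.39, adjusted p = 0.114), and it passed in the test of liver minus ES cells (1.31, adjusted p = 0.0334). Of the fatty acid synthesis list, 1 of 9 passed in Cdk4 +/- cells, the elongase Elovl6, which was higher (0.92, adjusted p = 0.00862). No gene of the isoprenoid (9 tested), bile acid (3) or LXR target (6) lists passed in Cdk4 +/- cells, and no gene of these 4 lists passed in Abca1 +/- cells or between the livers. Between E14 and ESVJ, 2 of 9 fatty acid genes were higher and 3 lower, 0 of 9 isoprenoid genes were higher and 3 lower, 5 of 6 LXR targets were higher and 0 lower, and 1 of 3 bile acid genes was higher and 0 lower, against 19.8% of all probe sets higher and 22.8% lower. Between +/+ liver and ESVJ, 6 of 10 fatty acid genes were higher and 3 lower, 1 of 9 isoprenoid genes was higher and 5 lower, and 4 of 7 LXR targets were higher and 1 lower, against 23.5% of all probe sets higher and 43.9% lower. Among those higher, Thrsp (fatty acid list) and Nr1h3 (LXR list) reached the signal filter through the livers. Fntb, an isoprenoid gene that was lower, reached it through the ES arrays, so these 3 calls add no support. All 7 bile acid genes tested were higher in liver, but 3 bile acid genes reached the signal filter in ES cells and the rest entered through the livers.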

How the data were processed

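Total RNA of each sample was hybridised to 1 mouse U74Av2 array. The authors computed probe set intensities with Affymetrix MAS 5.0 at default settings, per the labels. The deposited intensities had a 2% trimmed mean of 1501 to 1502 on every array, and the genome build is not given in the sources used here. Here each array was rescaled to a trimmed mean of 500, 66 control probe sets were left out, and log2(signal + 32) was taken. In each fit, probe sets whose mean signal reached 100 were tested with limma 3.58.1 (lmFit and eBayes with intensity trend, R 4.3.3), and p-values were adjusted by Benjamini-Hochberg over all probe sets tested, with a threshold of 0.05. The pseudocount makes the fold changes of dim probe sets smaller. The number of arrays, 3 per ES group and 2 per liver group, limits the precision.

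The 4 ES groups shared one fit of 12 arrays, the livers had a fit of 4, and liver was set against ES cells in a fit of 10. Single arrays were compared with the mean of the others of their group, without a test. Replicate numbers only name arrays. Symbols came from the platform annotation: 10855 probe sets had 1 gene, 396 had several and 1237 had none. All members are named by every probe set; the members and the other gene lists (other cholesterol enzymes, SREBP regulators and uptake, isoprenoid, fatty acid, bile acid, LXR targets and cell type markers) were chosen with earlier results of these data known. Of each other list, counts are given with the genes that passed, or the 1 with the smallest p. Likeness over the ES arrays ranked genes by Pearson's r. The fits were tested on simulated data. Alternatives covered the array scale, quantile normalization, the pseudocount, the filter, the trend, the arrays in the fit, 1 probe set per gene and leaving out arrays.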

Additional observations from a re-analysis of the deposited data

How the results depend on the processing

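The Abca1 comparison of ES cells gave 0 enzymes past the threshold under every alternative run. For Cdk4 +/- against E14 the count of 1 became 0 with all 16 arrays in one fit, without the filter, without the intensity trend and with only the groups compared. It ranged from 0 to 4 when single arrays were left out, and it was 7 without E14 replicate 3 and Cdk4 +/- replicate 2, an alternative chosen after seeing the data. The median of −0.13 then became −0.75, and it ranged from −0.34 to 0.025 over the fits without 1 array. In the difference between the Cdk4 and Abca1 comparisons the median of 0.07 became −0.36 with a filter of 200 and −0.60 without both arrays, where 3 probe sets passed in place of 0, and it ranged from −0.17 to 0.21 over fits without 1 array. For E14 against ESVJ the count of 4 became 1 with all 16 arrays and 2 without the filter and ranged from 1 to 4 without single arrays (1 without E14 replicate 3 or ESVJ replicate 3, 2 without ESVJ replicate 2), while the median ranged from −0.49 to 0.11, which is also its value without both arrays.

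For the livers labelled Abca1 +/- against +/+ livers the count of 0 became 2 with all 16 arrays, and without single livers it ranged from 0 to 4 and the median from −0.37 to 1.08. In liver minus ES cells the count of 0 became 1 with all 16 arrays and ranged from 0 to 3, and the median from −0.15 to 1.11. Msmo1 turned to −1.08 and −1.15 in these 2 comparisons without the second liver labelled Abca1 +/-, and was 1.36 and 1.29 without the first. For +/+ liver against ESVJ the count of 4 became 9 with only the groups compared and 8 after quantile normalization, where the median was 0.66. Single probe sets kept their direction and their side of the threshold in 1354 of 1513 alternative values. That count includes probe sets that did not pass in either setting. Among the calls, Hmgcs1 in Cdk4 +/- cells was kept in 8 of 16 alternatives. In E14 against ESVJ, Mvk was kept in 15 of 16, Nsdhl 98631_g_at in 12, Fdps 99098_at in 10 and Nsdhl 98630_at in 9. In +/+ liver against ESVJ, both Sc5d probe sets were kept in 14 of 14, Hmgcs1 in 13 and Lss in 12. No cause of these changes was tested, apart from the fewer arrays or genes that an alternative itself leaves. No paired analysis was possible because the labels give no replicate numbers that join arrays of different groups.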
